A study of Prunus avium with 27 samples.

Results

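Flower buds of the sweet cherry cultivar Burlat, an orchard-grown Prunus avium, were compared between 5 December 2014, when the labels call them dormant, and 27 January 2015, 53 days later, when the labels call them non-dormant. The measurement was the amount of H3K4me3, histone H3 trimethylated at lysine 4, recovered by chromatin immunoprecipitation and sequencing from whole frozen buds. The comparison uses 4 of the 27 samples of the series, replicates 2 and 3 of each date. Of 25635 listed regions, 14747 (57.5%) were tested, namely those whose deposited signal reached 10 in 2 or more of these 4 libraries. The regions nearest to this limit had a second-highest signal of 10.0002 inside it and 9.97 outside it. Separate readouts were 6 RNA libraries of the same dates (3 per date) and 2 H3K4me3 libraries from buds taken on 21 October 2014, also labelled dormant. All buds came from one cultivar and were cut from the same branches for both assays. Nothing in the labels ties replicates to separate trees, and the p-values therefore reflect only how far these libraries spread, which may be technical. All H3K4me3 libraries share 1 sequencing lane in the labels. Dormancy label and date change together and cannot be told apart.

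H3K4me3 is placed by methyltransferase complexes around the starts of genes that are being transcribed, and its level usually follows transcription. Winter dormancy of fruit tree buds ends after prolonged cold, and bud growth then resumes with warmth. In peach, the dormancy-associated MADS-box gene DAM6 has been reported to lose this mark as buds leave dormancy. The deposited tables pair gene identifiers with no names, so regions are given here by their positions on scaffolds, and the mark at such regulators was not examined by name. The sources used here do not give the genome build.

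The signal is the authors' normalised value per region (TMM, trimmed mean of M values). Each library was multiplied by 1 factor, between 0.938 and 1.14, so that the 4 libraries had the same sum over all listed regions. This scaling shows redistribution of the mark between regions and cannot show a change in its total amount. Every deposited value was a whole multiple of 1 step per library, and these steps, treated as reads, numbered 19724516 and 28126160 in the December libraries and 23871977 and 14216613 in the January libraries. The lowest value in a library is a minimum that 27.6% to 32.7% of regions share in these 4 libraries. Across tested regions the 2 December libraries correlated at r = 0.971 and the 2 January libraries at 0.952 on the log2(signal + 1) scale, against 0.917 to 0.950 between dates. These correlations run across regions, which are not independent replicates. The absolute log2 difference between replicates had a median of 0.098 in December and 0.105 in January, and that between the date means had a median of 0.116.

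The mark moved in both directions between December and January. In limma with Benjamini-Hochberg adjustment over all tested regions, 987 regions (6.69%) were called at an adjusted p under 0.05. Of these, 517 (3.51% of those tested) were higher and 470 (3.19%) were lower in January. Most changes were modest: the median rise was 1.36-fold and the median fall 1.44-fold. A change of at least 1.5-fold was seen in 177 of the rises and 199 of the falls, and one of at least 2-fold in 70 rises and 95 falls. In all 987 called regions the libraries of the dates did not overlap, but the same was true, with January higher, of 24.2% of all tested regions and, with January lower, of 27.8%. In whole buds, fewer cells carrying the mark and less of it per cell cannot be told apart.

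The balance of rises and falls was not the same with the values as deposited. With the values as deposited, 129 regions were higher and 359 lower in January (26.4% higher against 52.4% here), and the median over all tested regions moved by -0.11 on the log2 scale against -0.01 here. Both scalings called 116 of the rises and 220 of the falls. The scalings shift log2 changes by about as much as these medians differ. The smallest called rise and fall here were 0.19 and 0.18 in size, so opposite calls could not arise. The spread that limma estimated also differed in the fit of deposited values. There the largest rise had a log2 change of 5.88 and a limma adjusted p of 3.5e-41, against 5.97 and 0.00118 here. A value so small from 2 libraries per date comes from how that fit estimated the spread and does not measure certainty. How much of the difference in calls came from scaling and how much from spread was not tested. The number of calls also rested on letting the variance follow the signal level: without that trend limma called 15 regions, although 2481 had an unadjusted p under 0.05, and 6 of those 15 were among the 987. In each fit without 1 library, its date is represented by a single library that is assumed to vary like the other date, so a call lost there does not by itself show a smaller change.

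**Figure D1:**
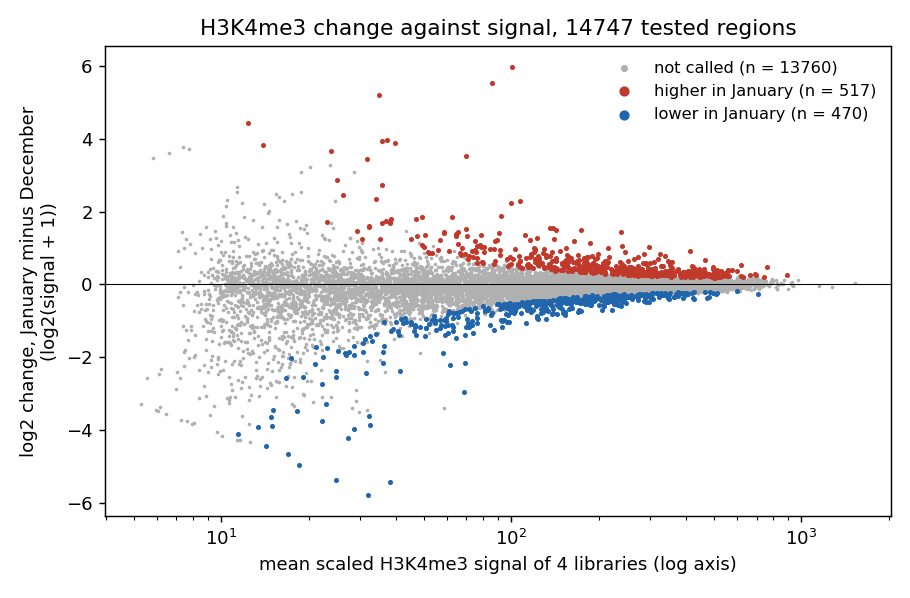
Log2 change of H3K4me3 (January minus December, on log2(signal + 1)) against the mean scaled signal of the 4 libraries (log axis), 1 point per tested region. The 517 regions called higher and the 470 called lower lie on both sides of 0, and the called changes are smaller where the signal is higher.

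Rises and falls were spread over weakly and strongly marked regions. Of the 517 rises, 302 (58.4%) had a mean signal at or above the median of all tested regions, against 160 of the 470 falls (34.0%). That mean includes the libraries that made the calls, and the difference was not tested. Regions are called strongly marked here if their mean signal at the date of higher signal was at or above the median of tested regions at that date, so the date at which a region is high places it in this class. The class held 359 rises and 200 falls, from which the 8 largest of each are described next. Their signals are given in the order replicate 2, replicate 3 for each date.

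The largest rise among these regions, strongly marked in January only, was on scaffold 3 at 2788510 to 2790510, at the start of PRUPE_ppa000217mg. Its signal was 0.152 and 7.65 in December and 188 and 206 in January. December replicate 2 and both October libraries, at 0.201 and 0.164, stood at the lowest value, and both January libraries were far above December. The log2 change was 5.97 (SE 0.71; limma, Benjamini-Hochberg adjusted p = 0.00118), and with a pseudocount of 10 in place of 1 it was 3.95. The RNA of this gene was 12.8, 14.6 and 12.3 TPM (a length-scaled share of all transcripts) in December and 146, 129.5 and 107 TPM in January.

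The next 7 rises started from an existing mark and were 2.30-fold to 2.95-fold. In the region from 1630881 to 1632881 of scaffold 8, signals moved from 112 and 145 in December to 353 and 346 in January, and no other named region ended as high. Its log2 change was 1.44 (SE 0.11; adjusted p = 0.000123 in limma with Benjamini-Hochberg adjustment). The RNA there rose with it, from 48.0, 57.5 and 55.5 TPM to 694, 628 and 530.4 TPM, the largest RNA rise among these 8 regions. For the scaffold 5 region 18241443 to 18243443, the signal rose from 65.6 and 72.6 to 200.2 and 207. October libraries there had 121 and 117, so December was the lowest of the 3 dates, and the RNA had its lowest level in December too, with means ± SD of 19.0 ± 2.74, 5.47 ± 1.47 and 36.8 ± 4.24 TPM (n = 3) for October, December and January.

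At 2 of the 8 strong rises both libraries of each date lay above both libraries of the date before. At 7012836 to 7014836 of scaffold 4, it stood at 0.201 and 13.1 in October, 88.9 and 91.5 in December, and 253 and 263 in January. The RNA of that gene was 2.16 ± 0.584 TPM in October, 29.2 ± 4.59 TPM in December and 28.2 ± 2.29 TPM in January (n = 3), a December to January log2 change of -0.04 (SE 0.13). The mark rose in an interval in which no RNA change was called (limma, Benjamini-Hochberg adjusted p = 0.834). Between 18932659 and 18934659 of scaffold 8, the signal was 1.81 and 27.6, then 68.2 and 80.01, then 220.1 and 201, and the RNA rose from 45.5 ± 4.92 to 78.1 ± 11.7 TPM after December (adjusted p = 0.00235, limma with Benjamini-Hochberg adjustment). Both of these calls were lost when the October libraries shared the estimate of spread (adjusted p of 0.321 and 0.294 in limma). The log2 changes were the same in that fit.

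The other 3 strong rises included the smallest of the 8 and 1 whose size depended on a single December library. Within 25406406 to 25408406 of scaffold 6, signals moved from 103 and 95.3 to 220.2 and 237, and the RNA rose from 7.75 ± 1.11 to 15.3 ± 0.476 TPM (n = 3). For the scaffold 1 region 36697460 to 36699460, signals moved from 84.9 and 78.6 to 179.5 and 217, while the RNA, at 3.57 ± 1.96 and 10.6 ± 7.66 TPM, was not called (limma, Benjamini-Hochberg adjusted p = 0.0585). At 13798428 to 13800428 of scaffold 1, the December libraries differed, at 107 and 41.7, and January stood at 159.7 and 248. Its log2 change was 1.56 and fell to 0.89 without December replicate 3, and neither DESeq2 nor limma on unfiltered regions made the call (adjusted p of 0.175 and 0.0772).

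The 8 largest falls at strongly marked regions were 1.61-fold to 1.77-fold. None of these 8 lost the mark, and their January signals lay between 86.6 and 171. Between 2425591 and 2427591 of scaffold 2, the signal fell from 252 and 259.7 in December to 151 and 160.2 in January, after 312 and 284 in October. The RNA of the gene was 858, 861 and 924 TPM in December and 170.0, 158 and 214 TPM in January, a log2 change of -2.29 (SE 0.11; limma, Benjamini-Hochberg adjusted p = 8.63e-06). The mark had a log2 change of -0.71 (SE 0.08; adjusted p = 0.00081, limma with Benjamini-Hochberg adjustment).

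Of the 6 strong falls assigned to a single gene, 5 had a called fall in RNA, against 45.8% of genes at all H3K4me3 falls and 14.5% at all tested regions. In the region from 3886716 to 3888716 of scaffold 8, the signal fell from 226 and 197 to 127 and 134, and the RNA from 479.7 ± 18.5 to 221 ± 42.1 TPM (n = 3). For the scaffold 2 region 23561034 to 23563034, it fell from 289 and 262 to 171 and 164, with RNA falling from 148 ± 14.5 to 94.0 ± 1.86 TPM. At 22692701 to 22694701 of scaffold 1, it fell from 228 and 196 to 141 and 112, and the RNA, at 194 ± 18.3 TPM in October, fell from 60.3 ± 3.79 to 45.1 ± 2.29 TPM. These 3 regions had their highest signal of the 3 dates in October, at 248 to 297.

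The region on scaffold 1 at 11565915 to 11567915 had its highest signal in December, at 198 and 192. It had 106 and 127 in October and 96.4 and 125 in January. Its RNA was called lower in January, with a log2 change of -1.76 (SE 0.54; limma, Benjamini-Hochberg adjusted p = 0.0361), and varied widely within dates. Between 10621431 and 10623431 of scaffold 7, the mark fell from 212 and 223 to 128 and 131 with no RNA change called, at 4.94 ± 0.221 and 5.37 ± 2.13 TPM. The remaining 2 strong falls were long regions. In the region from 21644054 to 21647785 of scaffold 8, the signal fell from 167 and 213 to 98.5 and 122, and the RNA of both genes at its ends was called lower, with log2 changes of -0.84 and -0.94. For the scaffold 4 region 20010214 to 20013700, the signal fell from 162 and 219.8 to 143 and 86.6. The call had an adjusted p of 0.0499 in limma with Benjamini-Hochberg adjustment. It was lost without December replicate 3 and in both count-based tools. Further losses came with a pseudocount of 0.1, on unfiltered regions, with all 6 libraries and without an intensity trend. The log2 change was -0.75 here and -0.39 without January replicate 3.

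**Figure D2:**
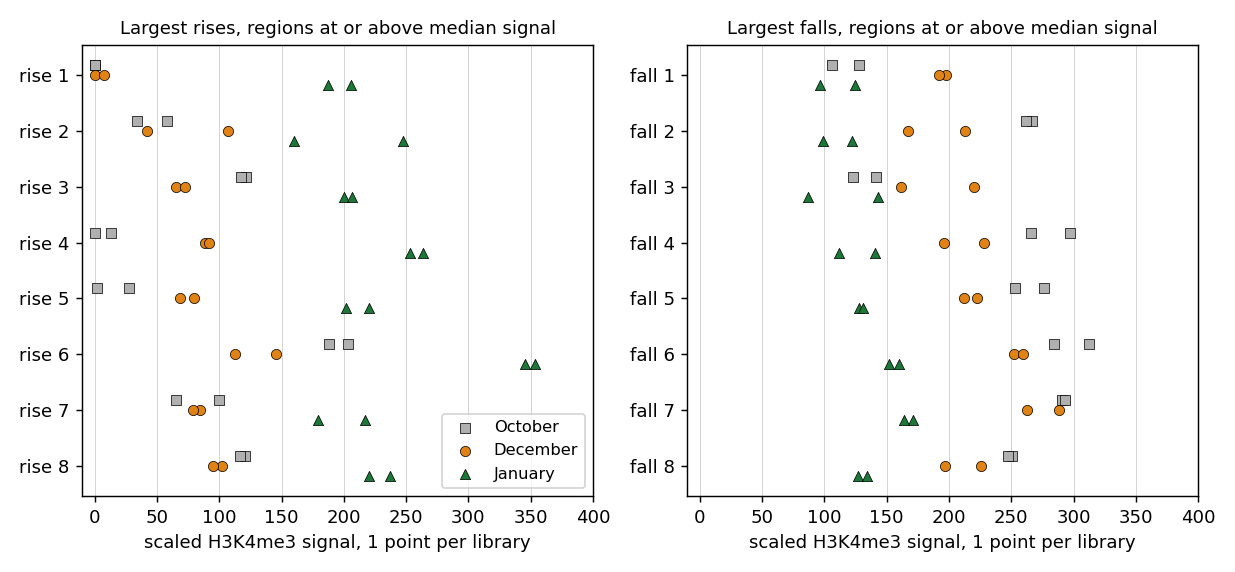
Scaled H3K4me3 signal at the 8 largest rises and 8 largest falls among regions at or above the median signal at the date of higher signal (January for rises, December for falls), ranked by log2 change, with 1 point for each of the 2 libraries of October, December and January. Regions were picked among calls whose libraries do not overlap between December and January, so the separation of these dates was set by the choice. January libraries of the rises lie from 159.7 to 353, above both December libraries, and those of the falls from 86.6 to 171, below them.

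Changes between near background and a clear mark were few. Among the rises, 9 started from a scaled signal under 10 in both December libraries, of 48 tested regions in that state, and they reached January means of 24.7 to 197. Among the falls, 23 ended under 10 in both January libraries, of 158 tested regions in that state, from December means of 22.5 to 75.4. Regions in these states passed the filter on low signal only through the other date, at which they are high, so the counts describe them and test nothing. RNA was called higher for 7 of the 8 tested genes at the 9 rises, and called lower for 4 and higher for 1 of the 14 tested genes at the 23 falls, where over all tested regions with tested RNA 19.5% of genes were called higher and 14.5% lower. The median RNA log2 change was 1.81 at those rises and -0.45 at those falls.

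At weakly marked regions the largest changes spanned this range. At 3707190 to 3711189 of scaffold 4, the signal was 0.152 and 10.3 in December and 155 and 178 in January; this region spans the windows of 2 genes, and the RNA of both rose, from 18.7 ± 3.40 to 133 ± 9.96 TPM and from 0.319 ± 0.375 to 2.39 ± 0.896 TPM (n = 3). DESeq2 did not make that H3K4me3 call (adjusted p = 0.0747). Between 39872570 and 39874570 of scaffold 1, the signal was 1.21 and 0.638 in December and 66.6 and 71.1 in January, and the call held under each alternative that gave a value, with the RNA rising from 6.38 ± 1.64 to 16.4 ± 3.59 TPM. In the region from 14130925 to 14132925 of scaffold 5, all October and December libraries stood at the lowest value and January reached 32.6 and 16.8. This rise was called at an adjusted p of 0.0434 in limma (Benjamini-Hochberg) and was lost without January replicate 2 (0.164) and, among other settings, with a pseudocount of 0.1 (0.136).

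The largest losses at weak regions ended at or near the lowest value in both January libraries. For the scaffold 4 region 6476560 to 6478560, at the start of PRUPE_ppa026618mg, the signal declined from 136 and 127 in October to 77.6 and 73.2 in December and 1.63 and 0.21 in January. The RNA went from 13.9 ± 1.45 to 9.78 ± 2.42 and 0.273 ± 0.0706 TPM (n = 3), and the H3K4me3 call was lost without December replicate 2 (adjusted p = 0.0662 in limma). At 8578359 to 8580359 of scaffold 3, signals moved from 35.6 and 63.4 to 0.125 and 0.21, with RNA falling from 2.43 ± 0.268 to 0.569 ± 0.301 TPM. Between 25743073 and 25745073 of scaffold 2, signal went from 53.9 and 74.0 to 0.125 and 0.21, with RNA at 47.6 ± 2.41 and 54.7 ± 2.86 TPM and no RNA call. In each of these last 2 regions the October libraries disagreed, one at the lowest value and the other at 33.4 or 55.8, and each call was lost without either December library (adjusted p of 0.0998 to 0.308). The log2 changes in those fits were -5.79 and -4.97 on scaffold 3, against -5.38 with all libraries, and -6.01 and -5.56 on scaffold 2, against -5.78. With both January libraries at the lowest value, these sizes depend on the pseudocount. Over all alternatives they ran from -8.29 to -2.51 on scaffold 3 and from -8.66 to -2.85 on scaffold 2. The call on scaffold 3 was also lost when October libraries shared the spread and without an intensity trend.

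RNA changes at the same genes, measured in separate libraries, followed the direction of the mark in most cases where both were called. Of 17445 genes tested for RNA, 3123 (17.9%) were higher and 2435 (14.0%) lower in January. A single gene with tested RNA stood at 12207 of the tested regions, where 19.5% of genes were called higher and 14.5% lower. At H3K4me3 rises, 261 of 478 such genes (54.6%) had higher RNA and 45 (9.41%) lower RNA, with a median RNA log2 change of 0.48. At H3K4me3 falls, 180 of 393 genes (45.8%) had lower RNA and 10 (2.54%) higher RNA, with a median of -0.44, against 0.03 over all regions with tested RNA. Both assays were thus called in the same direction at 441 regions and in opposite directions at 55. Among the larger changes, of the rises of 2-fold or more, 46 of 63 genes had higher and 0 lower RNA, and of the falls of that size, 36 of 72 had lower and 2 higher RNA.

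Grouped by RNA change, regions with larger RNA changes had larger median H3K4me3 changes. Where the RNA changed by less than 0.25 on the log2 scale, the median H3K4me3 log2 change was -0.01 and 1.92% of 5945 regions were called higher and 2.04% lower. Where the RNA rose by 1 to 2 log2 units, the median was 0.27 and 25.8% of 267 regions were called higher, and above 2 log2 units it was 0.75, with 54.3% of 35 regions called higher and 0 lower. On the falling side the medians were -0.18 for 278 regions between -2 and -1 log2 units, with 21.2% called lower, and -0.45 for 34 regions below -2, with 41.2% called lower. The quartiles of the H3K4me3 log2 change were 0.23 and 1.50 in the class of the largest RNA rises.

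**Figure D3:**
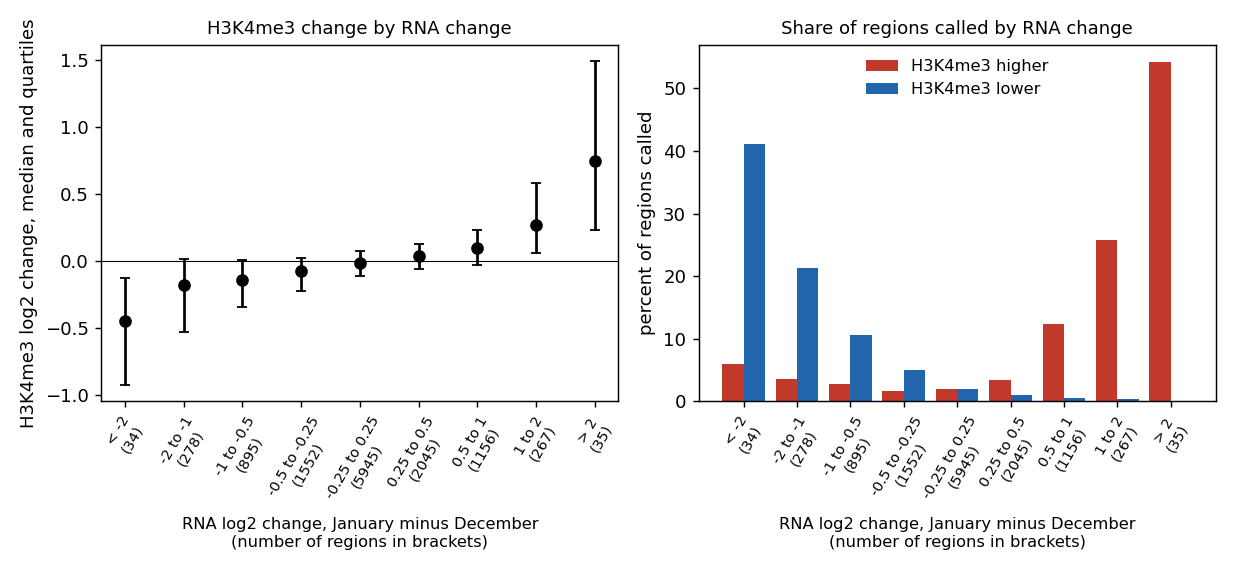
Left, median H3K4me3 log2 change with quartiles in classes of RNA log2 change (January minus December); right, percent of regions in each class called higher or lower for H3K4me3, with the number of regions in brackets. The median goes from -0.45 in the class with the largest RNA falls to 0.75 in that with the largest RNA rises, and the called shares from 41.2% lower to 54.3% higher.

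The regions with the largest joint rise, ranked by the product of both log2 changes, were led by the region at PRUPE_ppa000217mg described above. In the region from 1499480 to 1501480 of scaffold 1, at the start of PRUPE_ppa011907mg, signals moved from 8.18 and 12.5 in December to 117 and 141 in January, after 7.42 and 15.0 in October. Its RNA had a mean ± SD of 0.109 ± 0.188 TPM in October, 173 ± 61.3 TPM in December and 1044 ± 151 TPM in January (n = 3). In December this gene had RNA while its mark was near the October level, and the mark was called higher in January, with a log2 change of 3.54 (SE 0.29; limma, Benjamini-Hochberg adjusted p = 0.00015). For the scaffold 1 region 25332677 to 25334677, the signal rose from 8.49 and 8.71 to 53.8 and 72.5 and the RNA from 27.0 ± 6.86 to 190.0 ± 5.89 TPM, a call lost when October libraries shared the spread (adjusted p = 0.147 in limma).

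Among joint falls, the region on scaffold 1 at 11693184 to 11695184, at the start of PRUPE_ppa016319mg, kept a signal of 115 and 120 in October and 135 and 109.9 in December and had 15.5 and 14.3 in January. Its RNA peaked in December, at 15.8 ± 2.31, 47.5 ± 6.71 and 1.16 ± 0.814 TPM over the 3 dates (n = 3). Mark and RNA both dropped after December, with log2 changes of -2.95 (SE 0.24) and -4.54 (SE 0.25), and limma gave Benjamini-Hochberg adjusted p-values of 0.00015 and 1.22e-05. At 10529078 to 10531078 of scaffold 1, the signal declined from 90.1 and 90.1 over 45.9 and 57.6 to 5.63 and 0.21, and the RNA from 25.3 ± 2.81 over 15.0 ± 2.32 to 4.67 ± 0.0306 TPM. The H3K4me3 call there was lost without either December library, with log2 changes of -4.37 and -4.05 against -4.21. That call was also lost in DESeq2, on unfiltered regions and without an intensity trend. January replicate 3 stood at the lowest value, and the log2 change ran from -5.44 to -2.28 over all alternatives.

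Of the 55 opposite movements, 45 were rises of the mark where RNA fell. These regions had a median rise of 1.27-fold. With the deposited scaling 4 of the 45 were also called, against 116 of all 517 rises, whose median was 1.36-fold. What set these shares apart was not tested. The 2 with the largest product lay at 25937333 to 25939333 of scaffold 6 and at 8582142 to 8584142 of scaffold 4. At the first, the signal was 35.9 and 47.9 in October, 163 and 122 in December and 192 and 212 in January, and the RNA 4.61 ± 0.207, 206 ± 26.9 and 26.4 ± 5.52 TPM (n = 3). At the second, the signal was 23.9 and 31.9, then 138 and 107, then 167 and 194, and the RNA 2.06 ± 2.14, 36.2 ± 5.34 and 5.59 ± 4.17 TPM. In both, RNA was highest in December and the mark in January. The rises were 0.52 and 0.56 on the log2 scale. Neither was called with the deposited values, on unfiltered regions, with all 6 libraries, without an intensity trend or without December replicate 3. The first was also not called in either edgeR fit, and the second was not called without January replicate 3.

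The reverse, a fall of the mark with higher RNA, was called at 10 regions. With the deposited scaling 4 of these were also called, against 220 of all 470 falls. Between 37820131 and 37822131 of scaffold 1, signals moved from 13.2 and 43.7 in December to 0.125 and 0.21 in January while RNA rose from 6.21 ± 0.525 to 13.8 ± 1.85 TPM (n = 3). The H3K4me3 call, at an adjusted p of 0.0456 in limma, was lost without either December library, with log2 changes of -5.26 and -3.60 against -4.43. That call was also lost with quantile normalization, with a pseudocount of 0.1, on unfiltered regions and without an intensity trend. Both January libraries stood at the lowest value, and the log2 change ran from -7.48 to -1.79 over all alternatives. Scaffold 6 between 20874191 and 20876191 gave a second case: signals moved from 90.5 and 113 to 60.3 and 60.8 and the RNA from 26.0 ± 8.04 to 42.7 ± 5.73 TPM. The H3K4me3 call there was lost without December replicate 3, on unfiltered regions and without an intensity trend.

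Some genes changed RNA with little change of the mark. Of 592 regions whose RNA changed at least 2-fold, 420 had no H3K4me3 call, compared with 11336 of all 12207 regions with tested RNA. An H3K4me3 log2 change under 0.1 in size was found at 123 of the 592 (20.8%), against 46.5% of all regions with tested RNA. The examples that follow were chosen after their values were seen, as the largest RNA changes at such regions with at least 5 TPM on one date. For the scaffold 2 region 22255859 to 22257859, the signal was 268 and 232 in October, 259.9 and 249 in December and 255 and 250.4 in January, while the RNA was listed at 0 in the 3 December libraries and was 6.37, 9.37 and 12.9 TPM in January. At 37022770 to 37024770 of scaffold 1, the RNA fell from 30.2 ± 5.89 to 3.73 ± 0.636 TPM (n = 3; limma, Benjamini-Hochberg adjusted p = 2.94e-05), with 45.8 and 42.6 signal in December and 42.9 and 45.2 in January. The mark at the first was well above the median region on each date, and that at the second was low on each date.

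Long regions, which join the starts of neighbouring genes, gave 31 rises and 48 falls among 1300 tested (2.38% and 3.69%, against 3.51% and 3.19% of all tested regions). The RNA of 22 of the 51 tested genes at the ends of the rising regions was called higher and of 3 lower. At the falling regions 22 of 71 tested genes were called lower and 3 higher. Of all genes tested for RNA, 17.9% were called higher and 14.0% lower. Both genes followed the mark at 4 rising and 3 falling regions, a single gene did so at 14 and 16, and no region had 2 genes called in opposite directions. The largest long rise after the one on scaffold 4 lay on scaffold 1 at 1502435 to 1506099, from 3.18 and 6.06 in December to 50.8 and 66.9 in January. One of its genes rose from 34.3 ± 8.68 to 308 ± 81.3 TPM after being listed at 0 in October, and the other was listed at 0 in all libraries. The 2 largest long falls, at 8026841 to 8030808 of scaffold 1 (42.3 and 70.6 to 16.4 and 0.21) and 25684784 to 25688085 of scaffold 6 (35.6 and 42.5 to 7.64 and 3.15), were each lost without either December library, with log2 changes of -3.96 and -3.24 (against -3.60) and -2.86 and -2.61 (against -2.74). The fall on scaffold 1 was called at an adjusted p of 0.0496 in limma with Benjamini-Hochberg adjustment. Its call was also lost in DESeq2, in both edgeR fits, with all 6 libraries and with a pseudocount of 0.1. With January replicate 3 at the lowest value, its log2 change ran from -5.52 to -1.68 over all alternatives. On unfiltered regions both calls were lost. Of the tested genes at these falls, the one on scaffold 1 was called lower, from 4.84 ± 0.213 to 2.35 ± 0.526 TPM, and the one on scaffold 6 was not, at 55.0 ± 12.7 and 46.3 ± 9.10 TPM.

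The long region on scaffold 1 belongs to the longest run of neighbouring rises, 4 consecutive tested regions between 1492184 and 1509360. From one end to the other the December signals were 172 and 153, 8.18 and 12.5, 3.18 and 6.06, and 90.0 and 77.5. The January signals in the same order were 279 and 266, 117 and 141, 50.8 and 66.9, and 121 and 142. The outer regions were already marked in December and rose 1.67-fold and 1.56-fold, and the inner pair, at 12.5 or less in December, rose most. RNA in October, December and January was 38.8 ± 5.02, 188 ± 21.6 and 209 ± 26.1 TPM at the first region, with no call after December, and 42.0 ± 3.05, 244 ± 33.7 and 672 ± 79.3 TPM at the last, where it rose (n = 3). The call at the last region was lost with the deposited values and without replicate 3 of either date. Its log2 change was 0.64 and lay between 0.53 and 0.76 in the alternatives.

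Falls formed shorter runs, of at most 3 regions. On scaffold 5 the regions at 12673086, 12677092 and 12681464 (each 2000 bp) had December signals of 75.8 and 98.1, 268 and 285, and 118 and 142, and January signals of 39.1 and 28.6, 203 and 174, and 69.1 and 57.4. RNA was called lower at the first and second, with log2 changes of -1.76 and -1.12, and not at the third, with 4.58 ± 1.82 and 3.99 ± 0.234 TPM. The call at the first of these regions was lost without December replicate 3 (adjusted p = 0.0604 in limma). Of the calls, 449 of the rises and 438 of the falls had no called neighbour of the same direction. Of 94 neighbouring pairs in which both regions were called, 53 (56.4%) moved the same way, against 51.6% of the 14719 neighbouring tested pairs, called or not.

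The October libraries took no part in choosing the called regions. The 517 rises had median signals of 188 in October, 190.2 in December and 259 in January, so their median was alike on both dormant dates. Single rises could differ between October and December in either direction. The mean went from 6.64 to 90.2 at 7012836 of scaffold 4 and from 119 to 69.1 at 18241443 of scaffold 5. The 470 falls had medians of 192, 166 and 111 in the same order, a decline over both intervals. Over all tested regions the medians were 190.7, 190.2 and 189.1. The comparison of January with December and any comparison of December with October share the December libraries, so only levels are given.

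**Figure D4:**
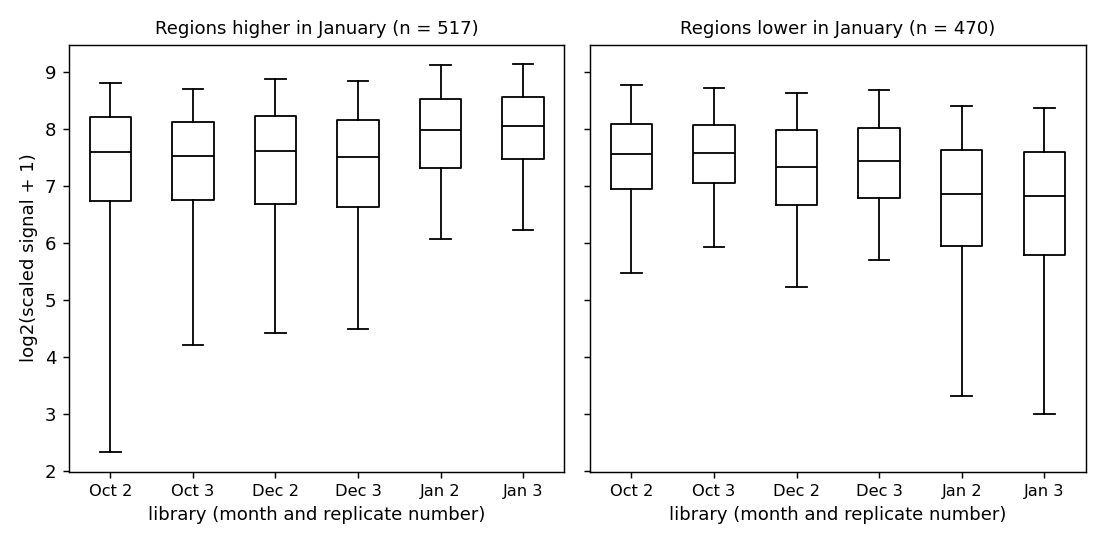
Log2(scaled signal + 1) of the called regions in each H3K4me3 library (boxes, quartiles with the median line; whiskers, 5th and 95th percentiles). Rises, left, lie alike in October and December and higher in both January libraries; falls, right, step down from October to December and again to January.

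Calls were made on all 8 large scaffolds. On scaffolds 1 to 8 the share called was 5.87% to 7.23%, with the lowest on scaffold 5 and the highest on scaffold 4. Regions of genes on the plus strand were called in 7.003% and on the minus strand in 6.49% of cases. By October signal, the share called was 5.37%, 8.06%, 6.43% and 6.92% in 4 classes of 3686 or 3687 regions from the least to the most signal, with no steady order. By the October RNA of the gene at the region, falls were called at 4.52%, 3.44%, 2.46% and 2.46% and rises at 4.39%, 3.21%, 3.57% and 4.49% of 4 classes of 3051 or 3052 regions from the lowest to the highest RNA. The 671 regions that carry an identifier in the tables were an exception: 266 were tested and 94 (35.3%) were called, 42 higher and 52 lower. The sources used here do not say how those regions were chosen, so this share is not read as a result.

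Single libraries changed the number of calls. Without December replicate 3, the library with the most recovered reads, 321 regions were higher and 134 lower. Without December replicate 2 there were 486 and 300. Without January replicate 2 there were 830 and 1268, and without January replicate 3, the library with the fewest reads, 413 and 554. None of the 987 calls could turn to the opposite direction in these fits, because the libraries of the dates did not overlap at any of them. The part of depth in the differing numbers of calls was not tested.

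**Figure D5:**
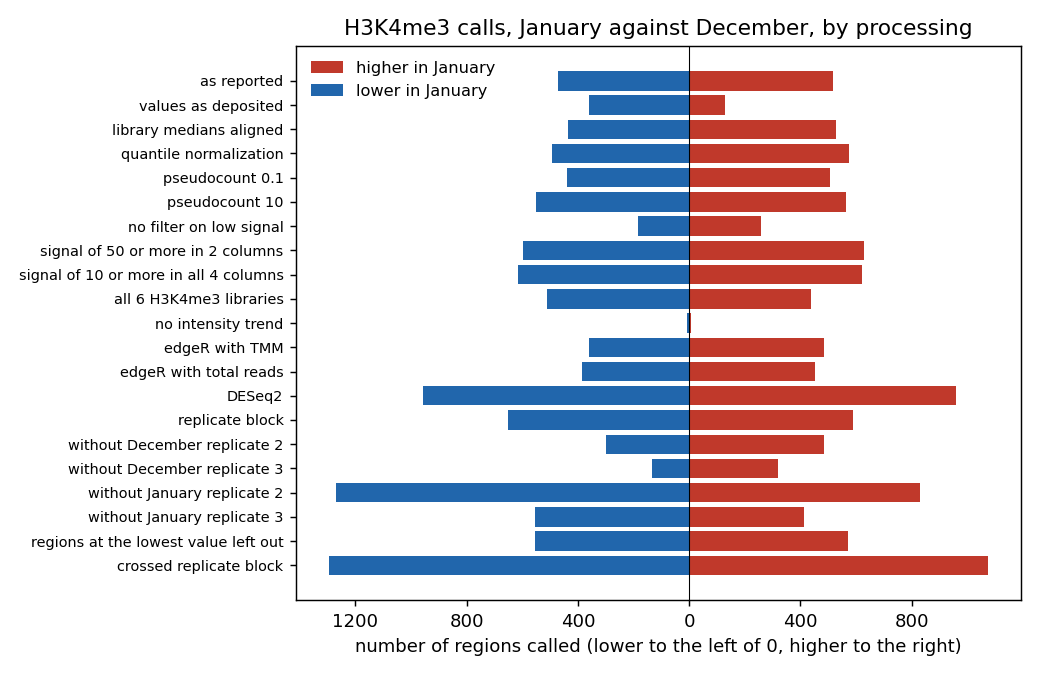
Number of regions called higher (right of 0) and lower (left of 0) in January under the reported processing, with 517 and 470, and under each alternative. Calls are fewest without an intensity trend, at 15, and lean to falls with the values as deposited, at 129 and 359.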

How the data were processed

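H3K4me3 chromatin immunoprecipitation and RNA libraries were sequenced by the submitters in paired reads of 75 bp, per the labels. The H3K4me3 signal deposited by the authors is 1 value per region and library, named TMM per the file headers. Tools listed without versions by the submitters' processing notes are Bowtie2, DiffBind, FastQC, Picard and Trimmomatic. The sources used here do not say whether a control was subtracted. H3 and input libraries are not analysed here. For RNA the authors deposited TPM, with TopHat and Picard in the notes. TPM keeps no depth, so no counting interval is given.

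The members, lists and rules were chosen with earlier results of these data known. Signals were scaled to the same sum, and log2(signal + 1) was tested with limma 3.58.1 in R 4.3.3 (intensity trend, date as the only factor, 4 libraries, two-sided, Benjamini-Hochberg over 14747 regions, calls at adjusted p under 0.05). RNA was tested likewise on log2(TPM + 1), over the 17445 genes that reached 1 TPM in 3 or more of 6 libraries. Fold changes on these scales understate changes of low values. edgeR 4.0.16 and DESeq2 1.42.0 were run on recovered reads (deposited signal divided by the library's step, 100% whole within 0.01) as alternatives, and edgeR with TMM called 846 regions. The code was tested on simulated data.

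A region was assigned to a gene where it spanned 500 bp before to 1500 bp after the gene's start on either strand, which held for 23473 regions and for all 671 with a deposited identifier. Positions are as deposited. Of 29449 identifiers, 0 were found in the RefSeq gene table. Long regions exceed 2100 bp. Named regions were the 8 largest rises and falls at or above the median signal, 3 of each below it, 4 joint changes per direction, 2 opposite changes per kind, 2 long regions per direction and the longest run per direction. Those picked by signal also had to have libraries that did not overlap between the dates, which held for all calls. RNA replicate numbers did not pair the libraries (correlations of deviations -0.04 to -0.08).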

Additional observations from a re-analysis of the deposited data

How the results depend on the processing

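None of the 38 named regions changed direction under the alternatives tried, which for many of these was fixed in advance. Leaving out 1 library could not turn a change, because the libraries of the dates did not overlap at called regions. Other filters, the trend, the replicate block and the October libraries left the log2 change as it was. Of 731 values, 636 stayed past the threshold and 95 lost it. Without an intensity trend almost all named regions lost their call. Those that kept it there start at 7012836 on scaffold 4, 39872570 on scaffold 1 and 25743073 on scaffold 2. Apart from that fit, 19 regions lost the call in no alternative. The counts of H3K4me3 rises and falls stayed within 1.5 times under aligned medians, quantile normalization, both other pseudocounts, both stricter filters, all 6 libraries and edgeR, and the cause of the differences below was not tested. With the values as deposited there were 129 rises, 195 joint changes in the same direction and 12 opposite. Without a filter on low signal there were 260 rises, 182 falls, 225 joint and 15 opposite changes, over 25635 regions. Without an intensity trend there were 6 rises, 9 falls, 7 joint and 0 opposite changes. DESeq2 gave 958 rises, 957 falls, 737 joint and 101 opposite changes. Leaving out 1 library at a time gave 321 to 830 rises, 134 to 1268 falls, 240 to 731 joint and 15 to 106 opposite changes, and 2270 to 3280 RNA rises and 1516 to 2197 RNA falls. Without a filter on low TPM 1993 genes rose and 1439 fell; with RNA library medians aligned 3002 rose and 3013 fell. The replicate block gave 590 rises and 651 falls for H3K4me3, and 2697 and 1987 for RNA. In that H3K4me3 fit the largest rise had a limma adjusted p of 2.2e-31, the same limit as in the fit of deposited values. Same-numbered H3K4me3 libraries deviated in opposite ways (correlation -0.24), and a crossed replicate block, chosen after seeing the data, gave 1073 rises, 1294 falls, 867 joint and 128 opposite changes. Leaving out regions at the lowest value, also chosen after seeing the data, gave 572 rises and 555 falls. The precision rests on 2 H3K4me3 libraries per date, with 14216613 to 28126160 recovered reads each, and fits without 1 library leave a date with a single library. What depth limits was not tested.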
